A study of Homo sapiens with 15 samples.

Results

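The keratins that tell luminal from basal prostate epithelium, together with the basal transcription factor TP63, were followed in bulk RNA-seq of VCaP prostate cancer sublines. The 9 genes were chosen by name as known markers of these cells, with earlier results of these data known: KRT8, KRT18, KRT19 and KRT7 as keratins of luminal or simple epithelium, KRT5, KRT14, KRT15 and KRT17 as keratins of basal cells, and TP63. All 9 were among the 58381 genes of the count files. Of these, 5 (KRT8, KRT18, KRT19, KRT14 and KRT15) passed the filter on low counts and were tested, and 4 (KRT7, KRT5, KRT17 and TP63) did not.

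Keratins are the intermediate filaments of epithelial cells and are built from pairs of 1 acidic and 1 basic chain. KRT8 is the basic and KRT18 the acidic partner of simple epithelium, and luminal cells of the prostate carry this pair. KRT19, an acidic keratin without most of the tail domain, is found in luminal cells and in cells described as intermediate between basal and luminal. Basal cells of the prostate carry the basic KRT5 with acidic partners such as KRT14, KRT15 and KRT17, and depend on TP63, a transcription factor that maintains the basal layer of many epithelia. Loss of basal cells is a feature of prostate adenocarcinoma, and staining for TP63 and basal keratins is used to look for them.

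VCaP is an established human prostate cancer cell line that grows in response to androgen. Each of 5 sublines was sequenced in 3 replicates, giving 15 libraries. VCaP-T was kept with 10 nM testosterone for 7 months in RPMI 1640 with DCC-FBS, the medium that the labels give for all 5 sublines with added L-glutamine and A/A. VCaP-CT was derived from VCaP-T over a further 10 months at 0.1 nM testosterone by the protocol, although the treatment labels of VCaP-CT and the sublines made from it list 10 nM for that period. VCaP-CT-ER came from VCaP-CT grown with the androgen receptor antagonist enzalutamide at 10 µM until growth resumed, and is called VCaP-CT-ET in the study's methods. VCaP-CT-BR came from VCaP-CT grown with another antagonist, bicalutamide, and its label adds enzalutamide once bicalutamide had lost its effect. VCaP-CT-BR-ER came from that line after growth resumed under enzalutamide. The text describes 1 derivation per subline, so the effects of treatment, passage time and clonal history cannot be told apart. The replicates are called biological by the study, but nothing states what separated them, and the p-values measure the spread between the libraries of 1 derivation each.

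Between 33665716 and 46935279 fragments were counted per library. No library stood apart from its subline: the lowest correlation of log2 CPM within a subline was 0.9913 and the highest between sublines was 0.9802. Levels are given as CPM, counts per 1000000 of the library size after TMM scaling. A library with 3 counts, taken as the floor of detection, corresponds to 0.0621 to 0.0905 CPM. Floors cover counting error only, and the 95% intervals, from standard errors derived from the test's F statistic, include the spread between libraries. Luminal markers were read in every library, at very unequal levels. The kallikrein KLK2 had 124871 counts or more and the acid phosphatase ACP3 69574 or more, while MSMB had 4 to 149. Each of the 10 luminal markers had at least 10 counts in 3 or more libraries. Their summed level was 24800 to 25600 CPM in VCaP-T, 13400 to 14100 for VCaP-CT and 13100 to 13800 for VCaP-CT-ER. It was 9930 to 10400 for VCaP-CT-BR and 7530 to 7740 for VCaP-CT-BR-ER. Of the 11 basal markers, 6 had at least 10 counts in 3 or more libraries, and the basal desmoglein DSG3 had 0 counts in all 15. Their summed level was 62 to 67.1 CPM in VCaP-T, 70.7 to 72.5 for VCaP-CT, 36.3 to 39 for VCaP-CT-ER, 121 to 134 for VCaP-CT-BR and 119 to 126 for VCaP-CT-BR-ER, and most of it was the desmocollin DSC3.

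The members sit in the keratin clusters of chromosomes 12 and 17. On GRCh38, KRT8 (chr12:52897187-52949954, minus strand) and KRT18 (chr12:52948871-52952901, plus strand) lie back to back and their annotated ends overlap by 1084 bases. Reads were counted without regard to strand, so fragments from this overlap cannot be told apart. KRT5 (chr12:52514575-52520687) and KRT7 (chr12:52232520-52252186) lie in the same type II cluster. On chromosome 17, KRT15 (chr17:41513743-41522529) and KRT19 (chr17:41523617-41528308) are separated by 1087 bases, followed after 53970 bases by KRT14 (chr17:41582279-41586921) and then by KRT17 (chr17:41619437-41624842), all on the minus strand. TP63 occupies chr3:189631416-189897279.

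RefSeq promoter sequences, from 250 bases before to 50 bases after a gene's start on GRCh38.p14, were matched for 3 of the 9 members, KRT8, KRT5 and TP63. They are shown because they set an abundant luminal keratin beside a basal keratin and the basal factor that were barely read. The KRT8 window (chr12:52926420-52926719, minus strand) belongs to an upstream start of the gene, the KRT5 window is chr12:52520345-52520644 on the minus strand, and the TP63 window is chr3:189631139-189631438 on the plus strand. Capitals mark matches, on either strand, to TATAA (TATA box), GGGCGG (GC box), AGAACA (androgen response element half-site), TGANTCA (AP-1 site) or CCGGAAG (ETS core).
KRT8: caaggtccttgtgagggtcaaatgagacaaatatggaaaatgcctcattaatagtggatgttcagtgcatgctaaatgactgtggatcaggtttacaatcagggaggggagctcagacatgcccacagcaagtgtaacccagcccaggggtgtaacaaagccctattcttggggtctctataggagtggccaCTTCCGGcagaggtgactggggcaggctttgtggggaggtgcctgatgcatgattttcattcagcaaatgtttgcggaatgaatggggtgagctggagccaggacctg
KRT5: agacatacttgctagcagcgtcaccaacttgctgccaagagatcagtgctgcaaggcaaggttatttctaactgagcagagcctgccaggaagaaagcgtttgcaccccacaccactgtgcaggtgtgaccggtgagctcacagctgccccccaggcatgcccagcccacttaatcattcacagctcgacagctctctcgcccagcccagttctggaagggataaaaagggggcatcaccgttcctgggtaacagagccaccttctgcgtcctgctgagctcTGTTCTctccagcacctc
TP63: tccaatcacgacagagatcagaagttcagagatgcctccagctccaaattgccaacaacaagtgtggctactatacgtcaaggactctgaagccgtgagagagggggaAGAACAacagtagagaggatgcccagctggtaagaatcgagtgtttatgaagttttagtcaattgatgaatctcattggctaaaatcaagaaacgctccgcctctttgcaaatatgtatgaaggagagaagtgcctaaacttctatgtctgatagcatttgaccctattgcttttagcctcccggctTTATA
The KRT8 window held 1 ETS core, a motif found in 10.3% of the 35114 RefSeq promoters of this length. The KRT5 window held 1 androgen response element half-site, and the TP63 window held 1 as well with 1 TATAA match at its end. These motifs were found in 14.8% and 20.4% of promoters. The TATAA match of TP63 is on the opposite strand and lies after the gene's start, so it is not placed as a TATA box of TP63. None of the 3 windows held a GC box, which 45.0% of promoters hold, or the AP-1 site, held by 7.71%. The 3 windows were poor in CpG, with 2 in KRT8 and 7 each in KRT5 and TP63 against a median of 14. These matches describe the letters of the windows and say nothing on binding.

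In VCaP-T, luminal keratins made up nearly all keratin counts. KRT8 was read at 968 ± 67.0 CPM (SD, n = 3), KRT18 at 695 ± 44 and KRT19 at 139 ± 2.42. The basal keratins KRT15 and KRT14 were read at 12.4 ± 0.417 and 10.1 ± 0.83 CPM. To compare genes, levels were divided by length. Per kilobase of the exons in the counting annotation, KRT18 led with 216 CPM per kb, ahead of KRT8 at 141 and KRT19 at 59.6, with KRT14 at 4.42 and KRT15 at 1.76. With the length of the canonical transcript instead, a choice made after seeing the data, KRT8 came first at 543 CPM per kb and KRT18 second at 492, and KRT15 at 7.27 came before KRT14 at 6.16. The order within these 2 pairs in VCaP-T thus depended on the length used, whereas KRT19 came after KRT8 and KRT18 by both. In VCaP-CT, KRT18 was above KRT8 by both lengths, at 101 against 52.7 CPM per kb and, by the canonical transcript, at 230 against 203.

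Among the members that were barely read, KRT17 had at most 2 counts in a library and was at 0 in 14 of 15. KRT7, a keratin of ductal and other simple epithelia, had at most 3 counts and was at 0 in 11 libraries. KRT5, the main basal keratin, reached 6 counts in 1 VCaP-T library and had at most 1 in any other library, with 12 at 0. TP63 had between 0 and 5 counts, the 5 being in a VCaP-CT library, and was at 0 in 4 libraries. At a depth of 33665716 fragments or more, expression of these 4 genes was thus at or within a few counts of the floor in all sublines, and no fold is given for them. KRT7 shares bases with KRT86, KRT7-AS and KRT87P, and none of these exceeded 20 counts.

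**Figure D1:**
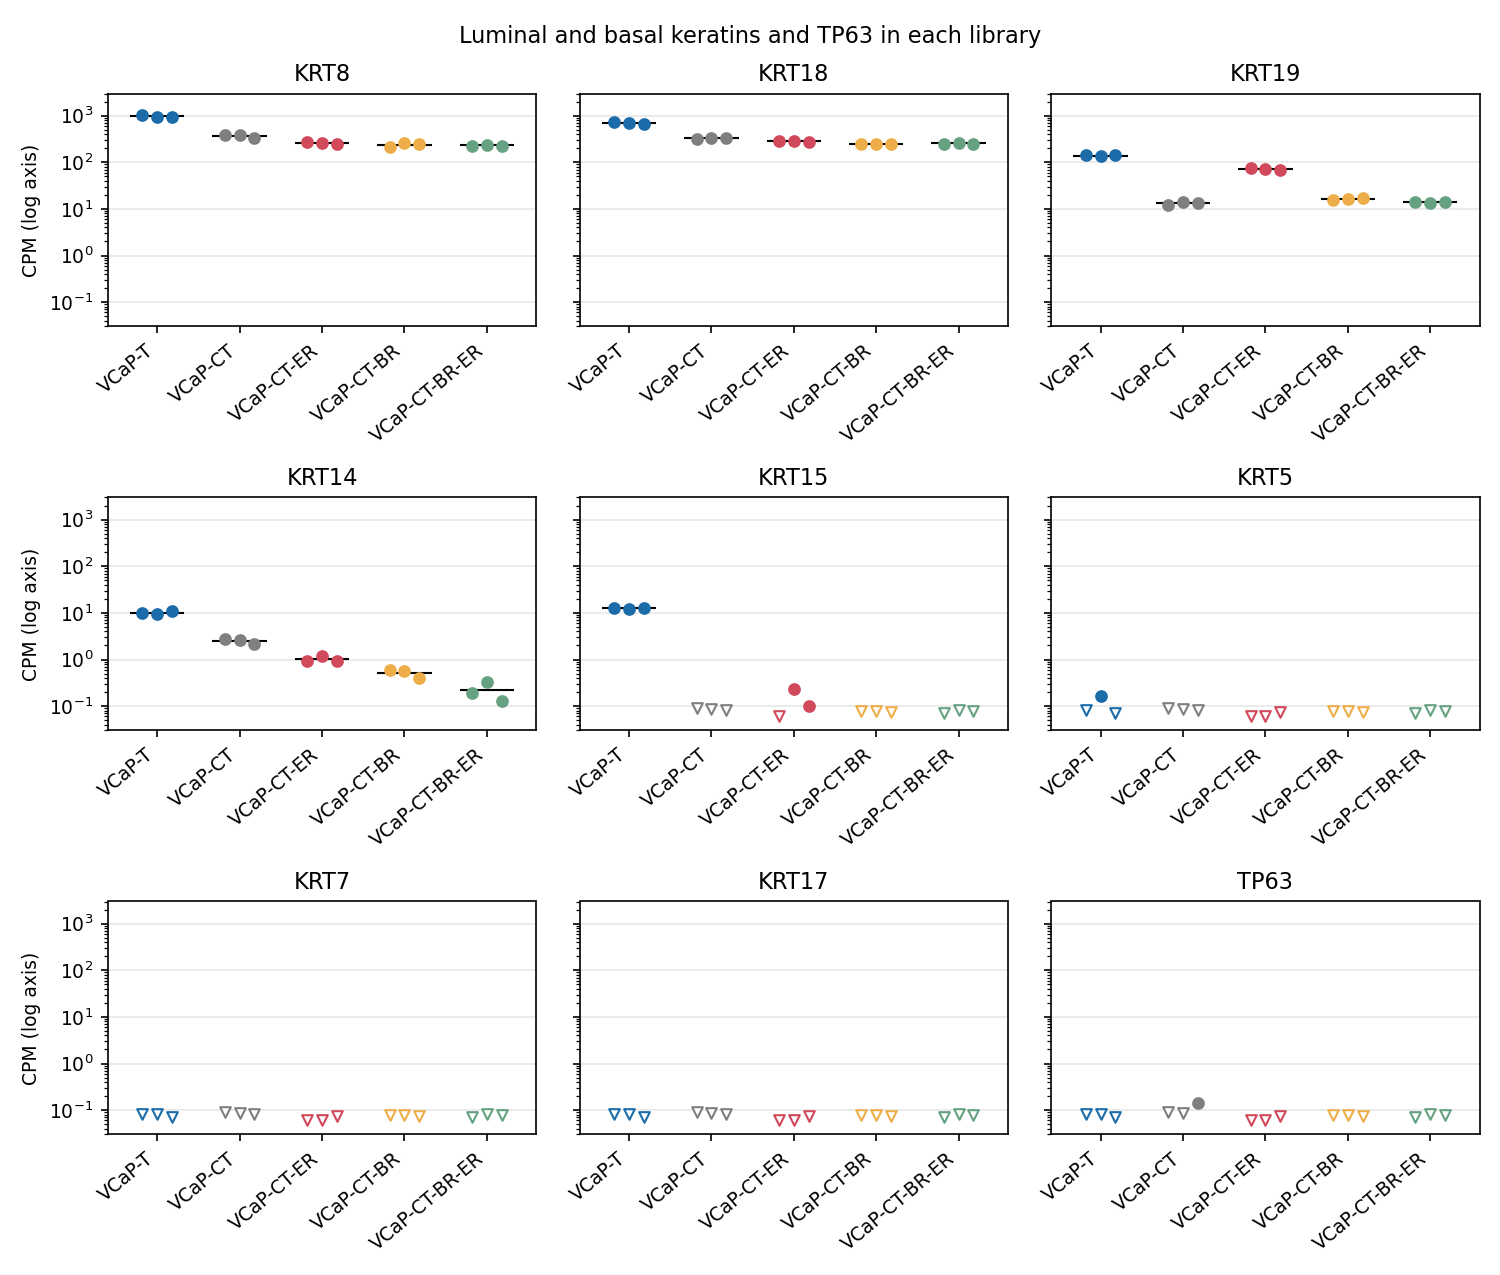
Each panel plots 1 gene, with its CPM on a log axis against the subline. Filled points are single libraries, lines are means of 3 libraries, and open triangles stand at the floor of 3 counts for libraries at or under it. KRT8 and KRT18 lie at 212 CPM or more in every library, KRT15 is clearly read in VCaP-T, and KRT5, KRT7, KRT17 and TP63 stay at the floor in all but 2 libraries.

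The step from VCaP-T to VCaP-CT addressed what long growth at low testosterone did to these genes. All 5 tested members fell, where 65.3% of the 19621 tested genes changed, 32.2% downward and 33.1% upward (edgeR quasi-likelihood test, Benjamini-Hochberg adjusted p under 0.05). Their median log2 fold change was −2.01, beside 0.0257 over all tested genes, and it stays at KRT14 when KRT15 is set to its bound. KRT15 passed the filter on low counts only through VCaP-T, so its fall was set in advance and adds nothing to the count. KRT8, KRT18, KRT19 and KRT14 were above the minimum count in VCaP-CT as well. Luminal and basal keratins both fell, and KRT18 fell least and KRT15 went out of detection.

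KRT8 was read at 1044, 919 and 941 CPM in the 3 VCaP-T libraries and at 378, 382 and 328 in those of VCaP-CT. The groups did not overlap, and KRT8 fell by 1.42 on the log2 scale (SE 0.0731, adjusted p = 3.86e-13, edgeR). Its partner KRT18 went from 738, 696 and 650 CPM to 321, 329 and 326 and fell by 1.09 (SE 0.046, adjusted p = 1.23e-14, edgeR). Both partners of the simple-epithelium pair thus remained the most abundant keratins. KRT19 had 141, 137 and 140 CPM in VCaP-T and 12.3, 14.3 and 13.7 in VCaP-CT, and fell by 3.38 on the log2 scale, more than the pair did (SE 0.0645, adjusted p = 3.49e-20, edgeR).

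Among the basal keratins, KRT14 was at 9.82, 9.41 and 11.01 CPM in VCaP-T and at 2.78, 2.62 and 2.15 in VCaP-CT, without overlap. It fell by 2.01 on the log2 scale (SE 0.132, adjusted p = 2.3e-11, edgeR). KRT15, a keratin of basal cells including stem-like ones in several epithelia, had 464, 440 and 535 counts in VCaP-T and 0 in each VCaP-CT library. Against the floor of 3 counts per library, its level in VCaP-CT was at least 137-fold lower (adjusted p = 3.38e-14, edgeR). Because these are bulk libraries, fewer cells that carry a keratin and less keratin RNA per cell cannot be told apart.

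From VCaP-CT to VCaP-CT-ER, which asked what accompanied regrowth under enzalutamide, the members split. Of the 5 tested, 2 rose (KRT19 and KRT15) and 3 fell (KRT8, KRT18 and KRT14), where 60.9% of all genes changed in either direction, 29.6% upward and 31.2% downward. KRT19 was at 77.1, 71.0 and 69.4 CPM in VCaP-CT-ER. All 3 libraries were above those of VCaP-CT and below those of VCaP-T. KRT19 rose by 2.43 on the log2 scale (SE 0.0636, adjusted p = 5.48e-18, edgeR), 5.40-fold, and stayed 0.94 below VCaP-T on that scale (log2 fold change −0.94, SE 0.0561, adjusted p = 2.8e-12, edgeR).

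KRT15 gave 3, 11 and 4 counts in the VCaP-CT-ER libraries. It passed the test against VCaP-CT (adjusted p = 0.000948, edgeR), yet its mean was only at least 1.44-fold above the floor of VCaP-CT, and it remained far under VCaP-T (log2 fold change −6.53, SE 0.214). KRT8 was at 273, 257 and 243 CPM and fell by a further 0.49 on the log2 scale (SE 0.0723, adjusted p = 5.13e-06, edgeR). KRT18 was at 284, 280 and 276 CPM and fell by 0.22 (SE 0.0457, adjusted p = 0.000328, edgeR). KRT14 went down to 0.911, 1.19 and 0.943 CPM, a fall of 1.30 (SE 0.172, adjusted p = 1.31e-06, edgeR). KRT14 and KRT19, which are separated by 53970 bases, therefore moved in opposite directions in this step.

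From VCaP-CT to VCaP-CT-BR, the step under bicalutamide, 3 members fell, 1 rose and 1 was not called, with 53.2% of all genes called, 26.1% upward and 27.0% downward. KRT8 was at 212, 262 and 246 CPM in VCaP-CT-BR and fell by 0.60 on the log2 scale (SE 0.0725, adjusted p = 6.83e-07, edgeR). KRT18, at 242, 252 and 245 CPM, fell by 0.40 (SE 0.0458, adjusted p = 2.76e-07, edgeR). KRT14, at 0.596, 0.575 and 0.396 CPM, fell by 2.26 (SE 0.202, adjusted p = 8.48e-09, edgeR). The fall of KRT14 was again larger than that of the luminal pair. KRT19 was at 15.5, 16.6 and 16.8 CPM, all above the 3 VCaP-CT libraries, and rose by 0.28 (SE 0.067, adjusted p = 0.00151, edgeR). KRT15 had 0 counts in all 3 libraries of both sublines.

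From VCaP-CT-BR on to VCaP-CT-BR-ER, 2 members fell (KRT19 and KRT14) and 3 were not called, with 42.9% of all genes called, 21.2% upward and 21.7% downward. KRT19 was at 14.3, 13.4 and 13.9 CPM and fell by 0.23 on the log2 scale (SE 0.066, adjusted p = 0.00807, edgeR). KRT14 was at 0.194, 0.325 and 0.131 CPM, which are 8, 12 and 5 counts, and fell by 1.26 (SE 0.329, adjusted p = 0.00366, edgeR). The luminal pair was nearly level across this step. KRT8 differed by −0.06 (95% interval −0.204 to 0.0802, adjusted p = 0.529, edgeR) and KRT18 by 0.04 (95% interval −0.0459 to 0.134, adjusted p = 0.473, edgeR). KRT15 had 1, 0 and 1 counts.

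**Figure D2:**
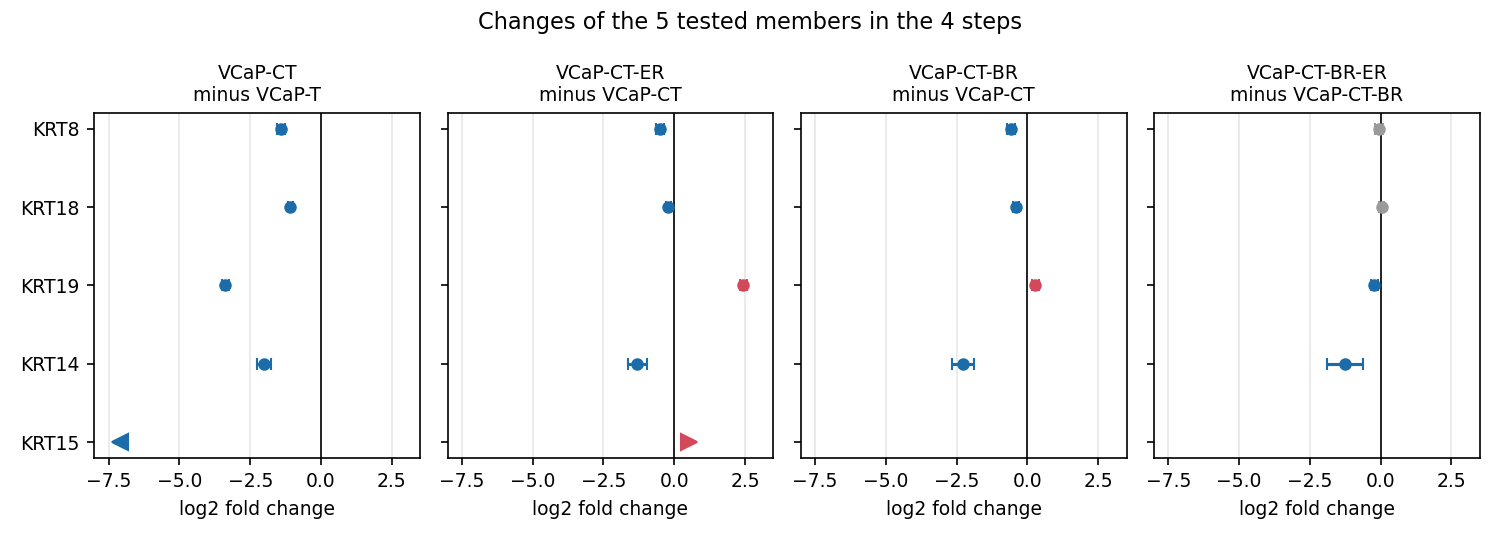
Each panel is 1 step, with the log2 fold change on the x axis and the 5 tested members on the y axis. Points and bars are estimates with approximate 95% intervals, red marks a rise, blue a fall and grey no call. Triangles for KRT15 are bounds against the floor of 3 counts, and no value is drawn where both sublines were at the floor. KRT19 moved by 2.43 to the right in the second panel only.

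The enzalutamide step was made once from VCaP-CT and once from VCaP-CT-BR, and the difference between these steps was tested directly. It was past the threshold for 3 of the 5 tested members, against 49.7% of all genes, 25.2% with a higher and 24.5% with a lower value in the second step. For KRT19 the step from VCaP-CT-BR was lower than the step from VCaP-CT by 2.66 on the log2 scale (log2 difference −2.66, SE 0.0913, adjusted p = 2.48e-15, edgeR). KRT8 and KRT18, which fell in the step from VCaP-CT, differed the other way, by 0.43 (SE 0.102, adjusted p = 0.00147, edgeR) and 0.26 (SE 0.0647, adjusted p = 0.0021, edgeR). KRT14 fell in both steps and the difference was 0.04 (95% interval −0.989 to 1.06, adjusted p = 0.966, edgeR). This interval is approximate, since an SE derived from the F statistic can be imprecise for a change this close to 0. A difference between the steps short of 2-fold is therefore not excluded for KRT14. KRT15 was too scarce in the second background for an estimate. When a change of at least 2-fold was required as well, 5, 3, 1 and 1 of the tested members remained called in the 4 steps, against 20.8%, 17.5%, 9.96% and 7.98% of all genes, and 1 (KRT19) for the difference, against 15.8%. The 3 in the step to VCaP-CT-ER include KRT15 by its fitted value against 0 counts. Its bound there was only at least 1.44-fold, so a 2-fold rise of KRT15 is not shown.

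The remaining pairs of sublines share libraries with these steps and give the order of the levels. Against VCaP-T all 5 tested members were lower in each of the antagonist-grown sublines VCaP-CT-ER, VCaP-CT-BR and, last, VCaP-CT-BR-ER, where 69.0%, 71.2% and 70.2% of all genes were called and 34.7%, 35.3% and 35.3% were lower. Here too, KRT15 was tested only because of its VCaP-T counts. Against VCaP-CT, VCaP-CT-BR-ER was lower for 3 members (52.5% of genes called, 26.4% lower). Against VCaP-CT-ER, 4 members were lower in VCaP-CT-BR (55.9% of genes called, 27.1% lower) and 4 for VCaP-CT-BR-ER (45.9% called, 22.7% lower). For KRT8 the order was VCaP-T, VCaP-CT, and then the 3 antagonist-grown sublines, none of whose pairs was called. VCaP-CT-BR against VCaP-CT-ER gave −0.10 (95% interval −0.245 to 0.0386) and VCaP-CT-BR-ER against VCaP-CT-ER gave −0.16 (95% interval −0.307 to −0.0231, adjusted p = 0.0686, edgeR), where the 3 libraries of one did not overlap those of the other. For KRT18 the order was VCaP-T, then VCaP-CT, then VCaP-CT-ER and last VCaP-CT-BR with VCaP-CT-BR-ER, which did not differ beyond their spread.

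KRT19 had another order, VCaP-T, VCaP-CT-ER, VCaP-CT-BR and then VCaP-CT-BR-ER with VCaP-CT. The last of these pairs did not differ beyond its spread, at 13.9 ± 0.457 and 13.4 ± 1.06 CPM (log2 fold change 0.05, 95% interval −0.0833 to 0.183, adjusted p = 0.566, edgeR). KRT14 descended from VCaP-T through VCaP-CT to VCaP-CT-ER, then VCaP-CT-BR and lastly VCaP-CT-BR-ER, with all neighbours past the threshold. From the first to the last its mean went from 10.1 to 0.217 CPM, a log2 fold change of −5.53 (SE 0.198, adjusted p = 4.52e-16, edgeR). KRT15 was clearly read in VCaP-T, at a few counts in VCaP-CT-ER and at or under the floor in the other three, at least 159-fold lower for VCaP-CT-BR and at least 153-fold lower for VCaP-CT-BR-ER than in VCaP-T.

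The balance among the keratins shifted as well. All 55 keratin genes together took 0.184 ± 0.0091% of the counts in VCaP-T, 0.0712 ± 0.00309% for VCaP-CT, 0.0646 ± 0.00275% for VCaP-CT-ER, 0.0518 ± 0.00319% for VCaP-CT-BR and 0.0511 ± 0.0014% for VCaP-CT-BR-ER (SD, n = 3 each). KRT8 and KRT18 held most of these counts throughout. The count of KRT8 per count of KRT18 was 1.39 ± 0.0661 in VCaP-T, between 1.32 and 1.45, above every other library. It was 1.11 ± 0.0935 for VCaP-CT, 0.920 ± 0.0416 for VCaP-CT-ER, 0.973 ± 0.0863 for VCaP-CT-BR and 0.905 ± 0.0117 for VCaP-CT-BR-ER. KRT8 thus lost more than its partner KRT18 on the way from VCaP-T.

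KRT19 took 7.55 ± 0.371% of keratin counts in VCaP-T, 1.86 ± 0.165% for VCaP-CT and 11.5 ± 0.265% for VCaP-CT-ER. The sublines VCaP-CT-BR and, after it, VCaP-CT-BR-ER had 3.14 ± 0.097% and 2.71 ± 0.153%. Its share in VCaP-CT-ER, from 11.3% to 11.8%, lay above that of VCaP-T, from 7.16% to 7.89%, although its level was lower. These shares and ratios are descriptions without a test of their own.

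**Figure D3:**
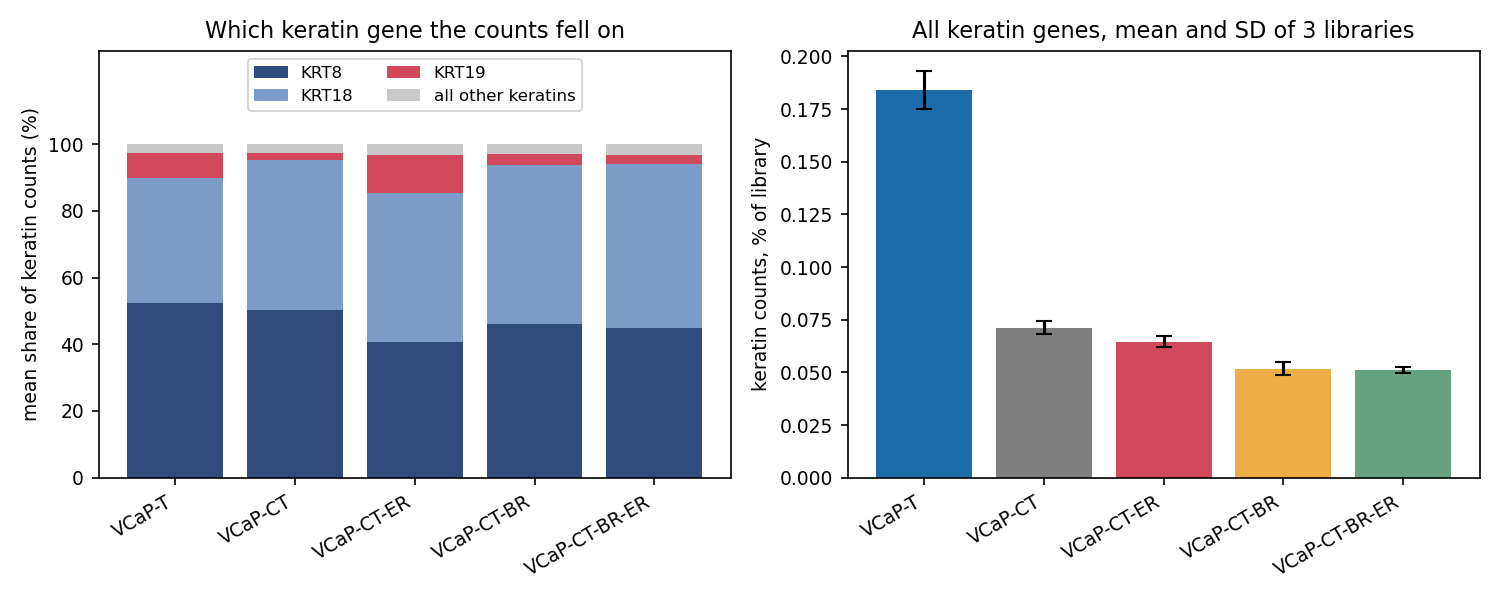
The left panel stacks the mean share of keratin counts, in percent, that fell on KRT8, KRT18, KRT19 and all other keratin genes in each subline. The right panel gives all keratin counts as a percent of the library, with bars for means and whiskers for the SD of 3 libraries. KRT19 takes 11.5% of keratin counts in VCaP-CT-ER, and the total falls from 0.184% in VCaP-T to 0.0712% or less.

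Outside the members, 6 of the 47 other keratin genes had at least 10 counts in 3 or more libraries and 36 had 3 counts or fewer in every library. KRT10, an acidic keratin of differentiating epidermis, was the most read of them. It was at 16.3 ± 0.815 CPM in VCaP-T, fell to 11.4 ± 0.755 in VCaP-CT (log2 fold change −0.52, SE 0.0839) and rose to 17.4 ± 1.08 in VCaP-CT-ER (log2 fold change 0.61, SE 0.0828, adjusted p = 1.65e-06, edgeR). KRT36, a hair keratin, was read at 156 to 165 counts in VCaP-T and at most 13 in any other library. KRT2, a basic epidermal keratin, was the only 1 of the 11 tested keratins to rise from VCaP-T to VCaP-CT, from 0.556 ± 0.178 to 3.29 ± 0.219 CPM (log2 fold change 2.58, SE 0.232, adjusted p = 3.17e-09, edgeR). KRT75 and KRT86, hair follicle keratins, were also highest in VCaP-T, at 12 to 29 and 15 to 20 counts. KRT80 was at 0.849 ± 0.222 CPM in VCaP-CT-BR and rose to 2.18 ± 0.278 in VCaP-CT-BR-ER (log2 fold change 1.35, SE 0.197, adjusted p = 9.98e-06, edgeR). Over the 11 tested keratins, members included, the median log2 fold change of VCaP-CT against VCaP-T was −1.91. KRT15, KRT36, KRT75 and KRT86 passed the filter on low counts only through VCaP-T. Their falls, and with them the direction counts and median over these 11 keratins, were in part set by that filter.

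KRT36, KRT15, KRT19 and KRT14 lie close together on chromosome 17, so other genes nearby were examined. Within 500 kb of KRT15 to KRT14, 15 genes that are not keratins were tested. From VCaP-T to VCaP-CT, 3 of these rose, 4 fell and 0 passed the threshold with a change of at least 2-fold, with log2 fold changes between −0.892 and 0.572 and a median of 0.0413. In the step to VCaP-CT-ER, 2 rose and 7 fell, between −0.915 and 0.374. Among all tested genes, 65.3% were called in the first of these steps and 60.9% in the second. The 4 keratins in this stretch thus changed by more than the other genes tested within 500 kb in the first step. Those other genes all lay beyond KRT14, at 164.8 kb or more from the middle of KRT19, and none lay on the KRT15 side. KRT36 and KRT15 passed the filter on low counts only through VCaP-T. Around KRT8 and KRT18, 22 other genes were tested, with a median of −0.0972 and a range of −1.33 to 1.14 in the first step.

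**Figure D4:**
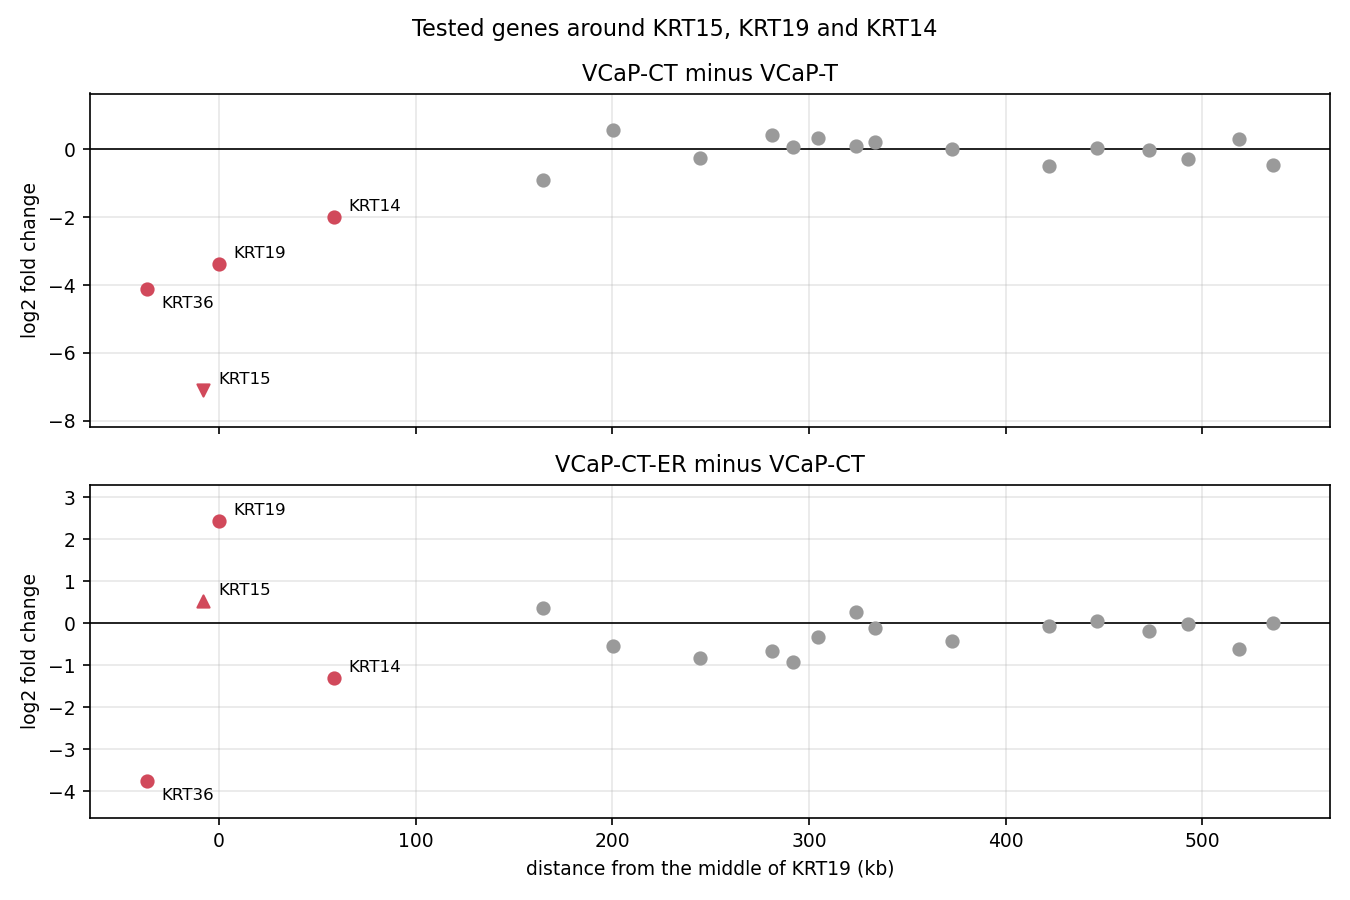
Tested genes within 500 kb of the chromosome 17 members are plotted by distance from the middle of KRT19 in kb, with the log2 fold change on the y axis, for the steps to VCaP-CT (top) and VCaP-CT-ER (bottom). Keratins are red, other genes grey, and the KRT15 triangle is a bound against the floor. In the top panel the 4 keratins lie at −2.01 or below, while the other genes lie between −0.892 and 0.572.

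KRT8 and KRT18 have many processed pseudogenes, intronless copies whose reads can be mistaken for those of the parent. There were 51 annotated copies of KRT8 and 67 of KRT18, and their summed counts were 22.3 ± 0.831% of the KRT8 count and 11.1 ± 0.0868% of the KRT18 count in VCaP-T. In the other sublines these shares were 22.5% to 24.4% and 11% to 11.3%. The most read copy, KRT8P3, is 97.1% identical to the canonical KRT8 transcript over 1449 aligned bases, and went from 120 CPM in VCaP-T to 41.9 with VCaP-CT and 25.0 with VCaP-CT-BR-ER. KRT8P45 and KRT18P11, 95.1% and 95.2% identical to their parents, went from 33.9 to 11.1 and from 18.3 to 8.06 CPM between VCaP-T and VCaP-CT. The counts of these copies moved with those of the parents, and whether the reads came from the copies was not tested. KRT19P1 had 2 to 49 counts and was also highest in VCaP-T and second in VCaP-CT-ER, at 1.17 and 0.558 CPM. No annotated copy is named after KRT14 or KRT15. The 8 KRT17 copies, of which the 3 most read are 72.2% to 74.8% identical to KRT17 where they align, reached 52 counts together in a VCaP-T library while KRT17 itself had 0 in all of them.

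The genes most like each member across the 15 libraries were ranked by Pearson correlation of log2 CPM among 13051 genes, as a description only, since the libraries form 5 sublines and share their scaling. For KRT8 they were RBCK1 (r = 0.996), KRT8P3 (0.995) and KCNH6 (0.993), and for KRT18 they were RBCK1 (0.994), DHRS7B (0.993) and LPAR3 (0.993). KRT8 and KRT18 correlated with each other at 0.991, and KRT8 with KRT19 at 0.692. For KRT19 they were CPE (0.996), CYP4F3 (0.989) and INSIG1 (0.984). CPE, carboxypeptidase E of secretory granules, was at 153 ± 7.93 CPM in VCaP-T, 15 ± 0.447 after the step to VCaP-CT and 78.9 ± 2.39 after that to VCaP-CT-ER, close to the levels of KRT19. For KRT14 they were FAM110C (0.989), DEF6 (0.987) and DRAIC (0.986). For KRT15 they were GARS1 (0.992), SARS1 (0.989) and YARS1 (0.988), the glycyl-, seryl- and tyrosyl-tRNA synthetases, of which GARS1 was at 426 ± 10.3 CPM in VCaP-T but 79.3 ± 1.57 after the step to VCaP-CT. KRT15 had at most 11 counts in any library outside VCaP-T, so its ranking mainly picks genes that set VCaP-T apart from the other sublines.

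Other luminal and basal genes were set beside the keratins. Of the 8 luminal markers apart from keratins, all tested, 3 rose and 5 fell from VCaP-T to VCaP-CT, where 65.3% of all genes changed. Their median log2 fold change was −0.584. KLK3, which encodes PSA, fell from 3560 ± 48.9 to 33.1 ± 1.21 CPM (log2 fold change −6.75, SE 0.0593) and rose to 520 ± 18.8 CPM in VCaP-CT-ER (log2 fold change 3.97, SE 0.0529). FOLH1, which encodes PSMA, rose from 1.77 ± 0.0426 to 13.6 ± 0.836 CPM in VCaP-CT (log2 fold change 2.94, SE 0.12). In the step to VCaP-CT-ER, 3 luminal markers rose, 3 fell and 2 were not called, with 60.9% of all genes called. KLK3 and KRT19 fell and rose together in these steps, but in the step to VCaP-CT-BR KLK3 fell by 1.23 where KRT19 rose, and in the last step KLK3 rose by 1.502 where KRT19 fell. ACP3 fell with KRT8 and KRT18 in VCaP-CT-ER (log2 fold change −1.02, SE 0.0474).

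Of the 15 basal markers apart from keratins, 13 were tested, and 8 fell and 3 rose from VCaP-T to VCaP-CT, with a median of −0.793. Among all tested genes, 32.2% fell and 33.1% rose. ITGB4, the β4 integrin of hemidesmosomes, fell from 12.5 ± 1.07 to 1.41 ± 0.187 CPM (log2 fold change −3.15, SE 0.164). DSC3, a desmocollin of stratified epithelia, rose by 0.82 (SE 0.0549) and was at 38.4 CPM or more in every subline but VCaP-CT-ER, where it was at 35.8 ± 1.48. In the step to VCaP-CT-ER, 9 fell and 2 rose, where 31.2% of all genes fell and 29.6% rose. ITGA6, the partner of ITGB4, fell from 112 ± 3.64 to 20.2 ± 1.68 CPM (log2 fold change −2.47, SE 0.0603), and COL17A1, a hemidesmosomal collagen, went from 21 to 35 counts to at most 2. CAV1, caveolin 1, rose by 2.03 (SE 0.337). In the step to VCaP-CT-BR, 8 fell and 3 rose, where 27.0% of all genes fell and 26.1% rose. Among those that rose was DST, the plakin of hemidesmosomes (log2 fold change 1.42, SE 0.0761). NGFR, a defining basal receptor, had at most 9 counts. Basal markers were thus read in these libraries at very unequal levels, while TP63 and KRT5 were near the floor.

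Keratin filaments are tied to desmosomes by plaque proteins and plakins, and the desmosomal cadherins DSG2 and DSC2 join the plaques of neighbouring cells. All 11 genes of a list of these proteins were tested. From VCaP-T to VCaP-CT, while every tested member fell, 6 of these genes rose and 3 fell (median 0.41), where 33.1% of all genes rose and 32.2% fell. EPPK1, epiplakin, rose by 1.15 (SE 0.145) and DSG2, the desmoglein of simple epithelium, by 0.97 (SE 0.0589). PPL, periplakin, fell by 0.91 (SE 0.116). In the step to VCaP-CT-ER, 9 of the 11 fell and 0 rose (median −0.549, beside −0.0186 over all genes). Among all tested genes, 31.2% fell and 29.6% rose. PKP1, plakophilin 1, went from 541 ± 28.7 to 41.6 ± 2.31 CPM (log2 fold change −3.70, SE 0.06, adjusted p = 3.05e-21, edgeR) and PPL from 3.77 ± 0.305 to 0.476 ± 0.113 (log2 fold change −2.96, SE 0.169).

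The desmosome and plakin genes behaved otherwise when enzalutamide followed bicalutamide. From VCaP-CT-BR on to VCaP-CT-BR-ER, 7 rose and 1 fell, where 21.2% of all genes rose and 21.7% fell. The bicalutamide step before it had lowered 7 of the 11 and raised 2 (median −0.392), where 27.0% of all genes fell and 26.1% rose. Compared with VCaP-CT, the last subline had 3 of the 11 higher, 3 lower and 5 not called (median −0.0213). In the enzalutamide step, PPL rose by 1.19 (SE 0.155), from a mean of 1.14 to 2.59 CPM, below the 3.77 CPM of VCaP-CT. PKP1 fell in that step from 410 ± 9.95 to 75.2 ± 4.3 CPM (log2 fold change −2.45, SE 0.0567). In the direct test of the difference between the enzalutamide steps, all 11 were past the threshold with a higher value in the second background (median 0.776, against 0.00818 over all genes). The same was true of 25.2% of all tested genes. For PPL the difference was 4.15 (SE 0.231) and for PKP1 it was 1.25 (SE 0.0775), although PKP1 fell in both. The second step started from a level at which 7 of the 11 were already lower, so a higher difference is not a rise above VCaP-CT.

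**Figure D5:**
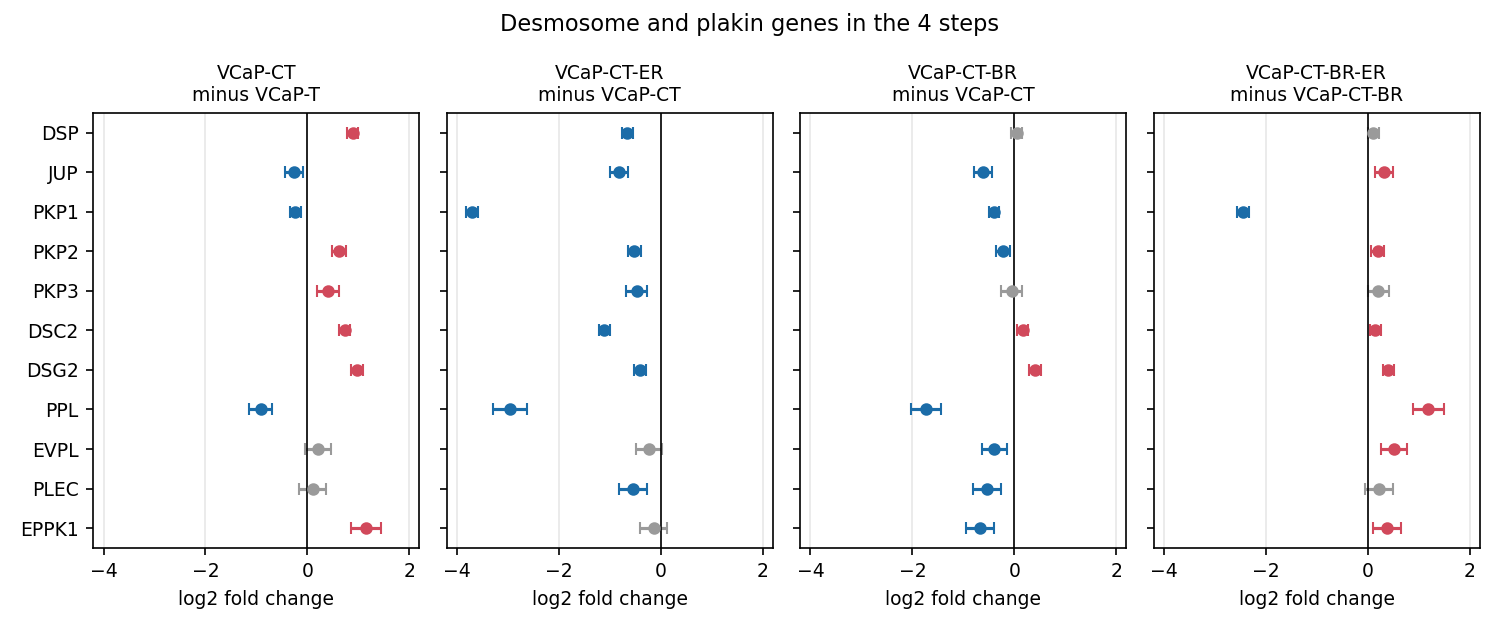
The 11 genes for desmosome plaque proteins, desmosomal cadherins and plakins are on the y axis and the log2 fold change on the x axis, with 1 panel per step. Points and bars are estimates with approximate 95% intervals, red marks a rise, blue a fall and grey no call. In the second panel 9 genes lie left of 0 and are blue, with PKP1 at −3.70, and in the fourth panel 7 are red.

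TP73, a transcription factor related to TP63, was read in all sublines. It was at 11.6 ± 2.08 CPM in VCaP-CT and rose to 16.3 ± 2.25 in VCaP-CT-ER (log2 fold change 0.50, SE 0.137). Of 8 genes known as targets of TP63 in other epithelia, 7 were tested, and 1 rose and 5 fell from VCaP-T to VCaP-CT. Among all tested genes, 33.1% rose and 32.2% fell. SFN, stratifin, fell from 4.11 ± 0.155 to 0.359 ± 0.117 CPM (log2 fold change −3.52, SE 0.241). FRAS1, a basement membrane protein, rose from 0.377 ± 0.102 CPM in VCaP-CT to 6.10 ± 0.236 after the step to VCaP-CT-ER (log2 fold change 4.01, SE 0.166). The 7 tested targets passed the filter on low counts, 1 did not, and TP63 had at most 5 counts.

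Of 13 other intermediate filament genes, 10 were tested, and 1 rose and 6 fell from VCaP-T to VCaP-CT (median −0.366). The share called was near the 65.3% of all tested genes. The neuronal NEFH and PRPH fell by 2.39 (SE 0.125) and 2.11 (SE 0.117). In the step to VCaP-CT-ER, 2 rose, with LMNB2, a nuclear lamin, at 0.69 (SE 0.0898), and 3 fell, with PRPH at −1.80 (SE 0.162). Among all tested genes, 60.9% were called in that step. VIM, vimentin of mesenchymal cells, had at most 5 counts in any library.

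Markers of other cells were measured beside these results, and their part in them was not tested. Of 7 fibroblast and smooth muscle markers, 5 reached 10 counts in 3 libraries, and their summed level was 12 to 14 CPM in VCaP-T, 13.6 to 14.6 for VCaP-CT, 186 to 218 for VCaP-CT-ER, 24.9 to 26 for VCaP-CT-BR and 217 to 251 for VCaP-CT-BR-ER. Nearly all of this sum in the antagonist-grown sublines was LUM, lumican, a gene chosen after its values were seen. LUM was at 195 ± 17 CPM in VCaP-CT-ER, 236 ± 17.8 for VCaP-CT-BR-ER and 23.5 ± 0.363 for VCaP-CT-BR. The sum in VCaP-T was mostly COL1A1, at 6.56 ± 0.724 CPM, and ACTA2, at 4.63 ± 0.455, with LUM at 0.756 ± 0.362. For VCaP-CT, LUM was at 6.24 ± 1.21 CPM beside ACTA2 at 3.37 ± 0.307 and PDGFRB at 3.35 ± 0.257. The defining fibroblast gene COL1A2 was at 0 in all 15 libraries and COL3A1 had at most 7 counts. Of 4 leukocyte markers 1 reached 10 counts in 3 libraries, with a sum of at most 1.02 CPM, PTPRC at most 2 counts and CD3E at 0. Of 3 endothelial markers 2 did, with sums of 13.2 to 16.3 CPM in VCaP-T, 8.16 to 9.31 for VCaP-CT, 0.0745 to 0.269 for VCaP-CT-ER, 0.881 to 1.57 for VCaP-CT-BR and 0.121 to 0.217 for VCaP-CT-BR-ER, while the defining CDH5 had at most 1 count. Of 7 club and hillock markers 2 did, LTF and PIGR, with sums of 12.3 to 14.1 CPM in VCaP-CT and at most 6.94 elsewhere, and the hillock keratins KRT4 and KRT13 had at most 3 and 1 counts.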

How the data were processed

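RNA was sequenced from 5 VCaP sublines, 3 libraries each. The authors aligned paired reads to GRCh38 with STAR 2.5.4b and deposited raw counts of fragments per gene from featureCounts 1.6.2 on GENCODE release 28, by exon, without strand or multi-mapping options, so that reads shared with near-identical copies are left uncounted or assigned by small differences. These builds and versions are from the submitters' processing notes, the file headers and the study's methods. Each library lists 58381 genes, and 98.9% of identifiers, with 99.84% of counts, were paired with a symbol.

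Counts were tested with edgeR 4.0.16 in R 4.3.3: filterByExpr with a minimum count of 10 (19621 genes), TMM scaling, 1 term per subline over all 15 libraries, the quasi-likelihood test and Benjamini-Hochberg adjustment at 0.05 over all genes. The biological coefficient of variation was 0.0609. The SE is the absolute log2 fold change over the square root of the F statistic, and intervals are 1.96 SE. Tested on simulated data for VCaP-CT against VCaP-T, with 19033 genes, the fit called 42 of 50 genes changed 1.5-fold, 50 of 50 changed 2-fold and 12 unchanged genes. Depth was 33665716 to 46935279 fragments per library, and a fold against libraries at or under 3 counts is a bound from that floor.

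The members and lists were chosen with earlier results of these data known. Named were all members, the 6 other keratins with the most counts, the 3 most read pseudogenes of a member, at most 2 called genes per direction and step of each further list, and the 3 genes with the highest correlation to a member. Alternatives were DESeq2 1.42.0, upper-quartile scaling, other filters, a fit of only the sublines compared, a 2-fold threshold, the replicate block, pseudogene counts added to their parents, and each library left out. Pseudogene identity was computed by local alignment with Biopython 1.88 to GENCODE release 44 transcripts. Promoters are from RefSeq. A promoter was not used here for KRT18, KRT19, KRT7, KRT14, KRT15 and KRT17. Some genes of the further lists are counted but not reported by name here.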

Additional observations from a re-analysis of the deposited data

Results flagged for a closer look

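The enzalutamide step differed between its backgrounds for 3 members by a direct test (edgeR quasi-likelihood test of the difference of the steps). KRT19 differed by −2.66 on the log2 scale, with a rise from VCaP-CT in 3 of 3 libraries and a fall from VCaP-CT-BR. KRT8 differed by 0.43 and KRT18 by 0.26, with falls from VCaP-CT and no call from VCaP-CT-BR. Of all tested genes, 49.7% differed between the steps. The label of VCaP-CT-BR mentions enzalutamide after bicalutamide, and whether that subline was already exposed is not settled by the labels. With 3 libraries a subline, no library was tested as an outlier.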

How the results depend on the processing

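The counts of members called were within 1.5 times the reported count under most alternatives, and no member changed direction while called. With at least 10 counts in every library KRT14 and KRT15 dropped out, leaving 3 calls for VCaP-CT against VCaP-T, 3 for VCaP-CT-ER against VCaP-CT, 1 for VCaP-CT-BR-ER against VCaP-CT-BR and 26 over all 10 pairs of sublines (42 with the filter described). With a 2-fold threshold the calls were 3 for VCaP-CT-ER against VCaP-CT and 1 each for VCaP-CT-BR against VCaP-CT, VCaP-CT-BR-ER against VCaP-CT-BR and the difference between the enzalutamide steps, because KRT8, KRT18 and the smaller changes of KRT19 were under 2-fold. The 3 include KRT15, whose fitted value rests on 0 counts in VCaP-CT and whose bound there is under 2-fold. Leaving out each library in turn gave 5 to 5, 5 to 5, 4 to 4 and 2 to 2 calls in the 4 steps, 3 to 3 for the difference and 41 to 44 over all pairs. The replicate numbers did not pair the libraries: no pair of sublines (0 of 10) had every same-number correlation above 0.1, with a mean of −0.00578 against 0.00294 for other numbers. With the replicate block the calls were 5, 5, 4 and 2 in the steps and 3 for the difference, as without it. With pseudogenes added to their parents, KRT17 passed the filter and its sum was called in 4 of 10 pairs. Without the filter, KRT5 was called in 1 of 10 pairs (adjusted p = 0.045, edgeR) on at most 6 counts. Depth limits KRT7, KRT5, KRT17, TP63 and, outside VCaP-T, KRT15.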
